A study of Mus musculus with 2 samples.

Results

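The *Zscan4* and *Tcstv* genes are widely used markers of the 2-cell-like state of mouse embryonic stem (ES) cells. The set is defined by gene symbol and comprises *Zscan4b*, *Zscan4c*, *Zscan4d*, *Zscan4e*, *Zscan4f*, *Tcstv1* and *Tcstv3*, 7 of 21935 gene symbols. Their transcript levels were compared between 1 RNA-Seq library of shLuc ES cells and 1 RNA-Seq library of shKdm5b ES cells. Both come from R1 ES cells, an established mouse line, transduced with lentiviral particles made from the pGreenPuro vector and selected with puromycin. No clones are described. The shLuc cells carried a short hairpin RNA (shRNA) against luciferase as the control, and the shKdm5b cells carried an shRNA against *Kdm5b*, which encodes a demethylase of lysine 4 of histone H3. Both were grown on irradiated mouse embryonic fibroblasts with LIF, the cytokine that sustains self-renewal, and were then cultured without LIF for 72 h, a time that the study's text and not the sample labels gives. The labels name low attachment dishes for differentiation, while the study's methods name these or gelatin-coated dishes. Polyadenylated RNA was sequenced. As each condition has a single library, no difference has a replicate check, and an effect of the shRNA and one of the library cannot be told apart.

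In a growing ES cell culture, a small and changing fraction of cells passes through a transient state that resembles the embryo just after its genome is first transcribed. These cells express ZSCAN4, a nuclear protein with a SCAN domain and zinc fingers that is needed for telomere maintenance and genome stability, and they express the small TCSTV proteins, which have also been tied to telomere length. The state is driven by the homeodomain factor DUX and is held back by chromatin regulators. A bulk library mixes the few cells in this state with all others, so fewer such cells and less RNA per cell cannot be told apart.

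The *Zscan4* genes are near-identical copies, which matters for reads of 50 bases. In the GENCODE M21 annotation of GRCm38 they lie in 1 cluster on chromosome 7. *Zscan4b* occupies chr7:10900740-10905050 on the minus strand, *Zscan4c* chr7:11005745-11010547 on the plus strand, *Zscan4d* chr7:11161374-11166159 on the minus strand, *Zscan4e* chr7:11306378-11310682 on the minus strand, and *Zscan4f* chr7:11397915-11402318 on the plus strand. Each has 4 exons, of which 3 are coding. Over the first 535 coding bases, the 5 genes differed at 11 positions, pairs of them were between 98.1% and 99.8% identical, and 155 of the 486 windows of 50 bases (31.9%) were the same in all 5. The first 50 coding bases are shown as 1 such window, from which no read could be placed on 1 gene:
All 5 Zscan4 genes, coding bases 1 to 50: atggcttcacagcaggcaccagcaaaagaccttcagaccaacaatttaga
The window with the most differences, coding bases 37 to 86, is shown because it sets *Zscan4d* apart. Capitals mark bases that differ from the base found in most of the 5 genes:
Zscan4f: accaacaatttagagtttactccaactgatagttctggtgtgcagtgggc
Zscan4d: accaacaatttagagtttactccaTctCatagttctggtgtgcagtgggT
In this window *Zscan4b*, *Zscan4c* and *Zscan4e* have the same letters as *Zscan4f*.

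The share of a transcript that can give a read of its own was counted as the percentage of its 50-base words that occur in no transcript of another gene. This share was 50.4% for *Zscan4d*, 14.5% for *Zscan4c*, 8.43% for *Zscan4e*, 7.51% for *Zscan4b* and 4.66% for *Zscan4f*. The *Zscan4d* share and GC content come from a reference transcript of 2272 bases, while its deposited entry has 1992. They may thus partly describe sequence outside that entry. The share was 74.7% for *Tcstv1* and 68.6% for *Tcstv3*. Most of the *Zscan4* family signal therefore cannot be assigned to 1 copy from the sequence, and the sum over the copies is the firmer measure. How RNA-Seq reads with several possible placements were treated is not given in the sources used here.

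The promoters of the family are also alike. A RefSeq table of 250 bases before each transcript start (GRCm38.p6) held 4 of the 7 genes, namely *Zscan4b*, *Zscan4c*, *Zscan4d* and *Zscan4f*, and pairs of these were between 94.7% and 99.6% identical where they aligned. The promoters of *Zscan4d* (chr7:11166149-11166398, minus strand) and *Zscan4f* (chr7:11397665-11397914, plus strand) are shown as the most and the least distinct transcripts. Capitals mark, from left to right, an inverted repeat that resembles the sequence bound by DUX, and a TATA box (TATAAAA). The inverted repeat was searched as TGAT and its reverse complement ATCA with 3 bases between them, of which the first is T, and is present here on the opposite strand:
Zscan4d: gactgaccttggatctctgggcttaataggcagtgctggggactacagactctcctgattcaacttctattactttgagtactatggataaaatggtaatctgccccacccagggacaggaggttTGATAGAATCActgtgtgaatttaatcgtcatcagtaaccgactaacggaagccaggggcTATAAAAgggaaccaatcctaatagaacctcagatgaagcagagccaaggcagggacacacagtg
Zscan4f: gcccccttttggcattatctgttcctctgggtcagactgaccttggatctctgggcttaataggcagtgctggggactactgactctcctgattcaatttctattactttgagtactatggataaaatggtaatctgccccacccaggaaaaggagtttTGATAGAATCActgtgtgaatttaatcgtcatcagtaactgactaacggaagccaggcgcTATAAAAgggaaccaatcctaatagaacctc
The TATA box, searched on the transcribed strand and its complement, was found in 4 of the 4 *Zscan4* promoters and in 4.98% of 32851 promoters in the table. The inverted repeat, searched on both strands and not overlapping the TATA box in these promoters, was found in 4 of the 4 and in 0.177% of all promoters (58). Of the 69 symbols of other 2-cell-like genes listed for the comparison below, 30 have a promoter in the table, of which 0 hold the inverted repeat and 9 hold the TATA box. Among these 9, *Gm10264*, *Usp17lb*, *Usp17lc* and *Usp17ld* have no expression value here. TGCACAC, a motif described for ZSCAN4 itself, was found in 0 of the 4 and in 3.67% of all promoters. The 4 promoters are copies of each other and count as 1 observation. A match is a description of the letters and shows no binding.

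The libraries were deep and alike in size, with 78172700 reads for shLuc and 72702700 for shKdm5b as the total behind the deposited values. All reads were 50 bases long. The share of reads at a position that already held another read on the same strand was 67.1% in shLuc and 79.9% in shKdm5b. Such reads need not be independent molecules, so the counting intervals given below are too narrow. *Kdm5b*, the targeted gene, was examined by its RPKM, the reads on a transcript divided by its length in kilobases and by the library total in units of 1000000 reads. Its RPKM was 104 in shLuc and 3.01 in shKdm5b (log2 ratio -5.07). All 10 markers of ES cells that were listed had an RPKM above 1. By the thresholds given below, 2 were called lower, *Pou5f1* (619 in shLuc and 182 in shKdm5b) and *Esrrb* (80.5 and 41.2). The 1 called higher was *Dppa5a* (1096 and 1651). Among all tested genes, 32.0% were called lower and 16.3% higher. After the correction for GC content described below, 1 marker was lower and 3 were higher, against 18.0% and 18.6% of all genes. *Pou5f1* (log2 ratio -1.03) and *Dppa5a* (0.75) kept their calls. *Esrrb* (-0.31) was then not called, while *Klf4* (0.75) and *Utf1* (0.68) were called higher. With curves on both GC content and length removed, *Dppa5a* (-0.03) and *Utf1* (0.30) lay within 1.5-fold, while *Pou5f1* (-1.30) and *Klf4* (0.83) did not. The 10 fibroblast markers, listed to trace feeder cells, summed to an RPKM of 6.43 in shLuc and 6.04 in shKdm5b, and 2 of them were above 1. *Thy1* made up most of both sums (4.08 and 4.59). Which cells these transcripts came from was not tested.

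All 5 *Zscan4* genes were lower in shKdm5b ES cells, at 46.3% to 57.4% of the shLuc level. *Zscan4f*, the copy with the highest level, had an RPKM of 53.5 (7646 reads) in shLuc and 29.2 (3889 reads) in shKdm5b. *Zscan4e* had an RPKM of 45.0 (6142 reads) in shLuc and 25.1 (3183 reads) in shKdm5b. *Zscan4c*, the copy that has been studied most in ES cells, had an RPKM of 44.1 (7847 reads) in shLuc and 25.3 (4191 reads) in shKdm5b. In each of these 3 genes the shKdm5b value was between 54.7% and 57.4% of the shLuc value. *Zscan4b* had an RPKM of 41.4 (5670 reads) in shLuc and 23.0 (2929 reads) in shKdm5b, which is 55.5%. *Zscan4d*, the copy expressed in the 2-cell embryo, had an RPKM of 41.4 (6443 reads) in shLuc and 19.2 (2774 reads) in shKdm5b, which is 46.3%. The lowest *Zscan4* RPKM in the shLuc library was thus above the highest in the shKdm5b library. As near-identical copies that can share reads, the genes do not count as separate observations of this difference.

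**Figure D1:**
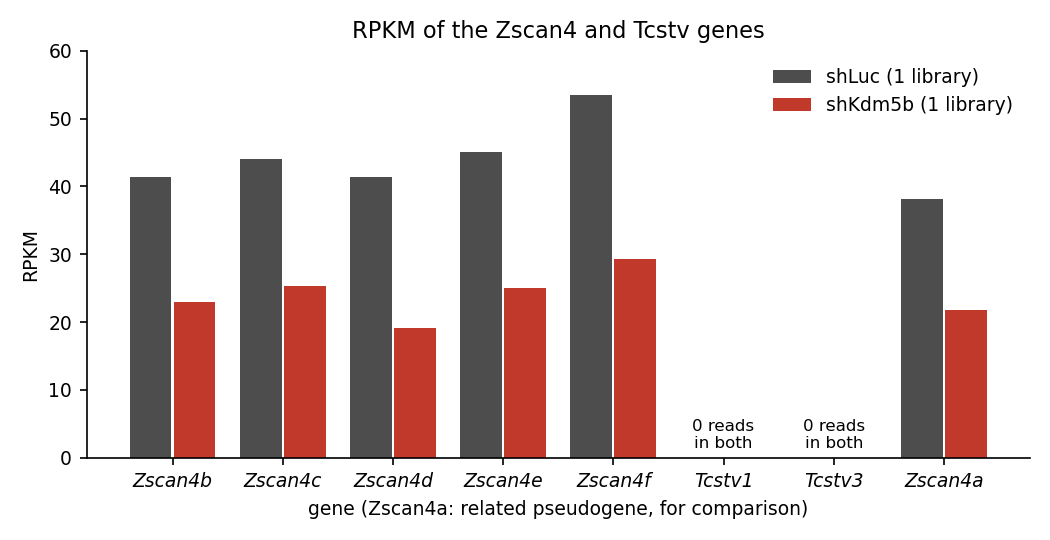
RPKM of each gene (y axis) in the shLuc library (grey bars) and the shKdm5b library (red bars), with 1 library per condition and therefore no error bars. The 5 *Zscan4* genes stand between 41.4 and 53.5 in shLuc and between 19.2 and 29.2 in shKdm5b, *Tcstv1* and *Tcstv3* are listed at 0 in both, and the pseudogene *Zscan4a* is drawn for comparison.

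Summed over the 5 copies, *Zscan4* had 33748 reads in shLuc and 16966 in shKdm5b. This is 432 of every 1000000 reads (exact 95% counting interval 427 to 436) in shLuc and 233 (230 to 237) in shKdm5b. These shares take each read as counted once. If a read was counted at several copies, it enters the sum more than once. The summed RPKM was 225 in shLuc and 122 in shKdm5b, which is 54.0%. *Zscan4a*, a transcribed pseudogene of the cluster with 36.4% words of its own, had an RPKM of 38.1 (6728 reads) in shLuc and 21.8 (3577 reads) in shKdm5b. With it included, the shKdm5b sum was 54.5% of the shLuc sum.

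To form log2 ratios of shKdm5b over shLuc, 0.1 was added to each RPKM, so that differences of low genes are understated. Its 95% interval is the exact Clopper-Pearson interval of the reads in the 2 libraries, with nothing added, and covers counting error only. The log2 ratio was -0.85 (interval -0.91 to -0.78) for *Zscan4b*, -0.80 (-0.85 to -0.75) for *Zscan4c*, -0.84 (-0.91 to -0.78) for *Zscan4e* and -0.87 (-0.93 to -0.81) for *Zscan4f*. It was -1.11 (-1.18 to -1.05) for *Zscan4d* and -0.89 (-0.91 to -0.86) for the sum. A gene was called lower or higher where it differed by more than 1.5-fold and had an RPKM above 1 in the higher library, the thresholds of fold and level that the study used. By these thresholds 5 of the 5 *Zscan4* genes were called lower, and so were 32.0% of all 11804 genes with an RPKM above 1 in the higher library. The count was 4 with TMM scaling of the libraries, 1 (*Zscan4d*) with a fold above 2, and 0 in the edgeR exact test at an assumed dispersion of 0.04 or 0.16. Among the 398 genes whose shLuc RPKM lay in the range of the *Zscan4* genes, 27.9% were called lower. A fall of this size was therefore common in these libraries, and between 13.5% (*Zscan4d*) and 23.4% (*Zscan4c*) of all tested genes had a lower ratio than a given *Zscan4* gene.

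The *Zscan4* genes stood further apart from genes of like base composition. Their transcripts hold between 42.3% and 44.4% GC, and across 11568 genes the log2 ratio fell with GC content (Spearman correlation -0.53 across genes of the same pair of libraries, which are not independent). When the genes were ranked by GC content and divided into 10 groups of like size, all 5 *Zscan4* genes lay in group 2, with 42.0% to 44.5% GC. In that group 8.3% of 1157 genes were called lower and 30.4% higher, and the median log2 ratio was 0.28, against -0.21 for all tested genes. After a correction that removed a smooth curve of the log2 ratio on GC content, the ratio was -1.45 for *Zscan4d* and between -1.14 and -1.07 for the other 4 genes, and -1.15 for the sum. Of 11568 genes, 18.0% were called lower after this correction, and between 1.92% (*Zscan4d*) and 5.19% (*Zscan4e*) had a lower ratio than a given *Zscan4* gene. Whether GC content itself set the ratios was not tested.

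**Figure D2:**
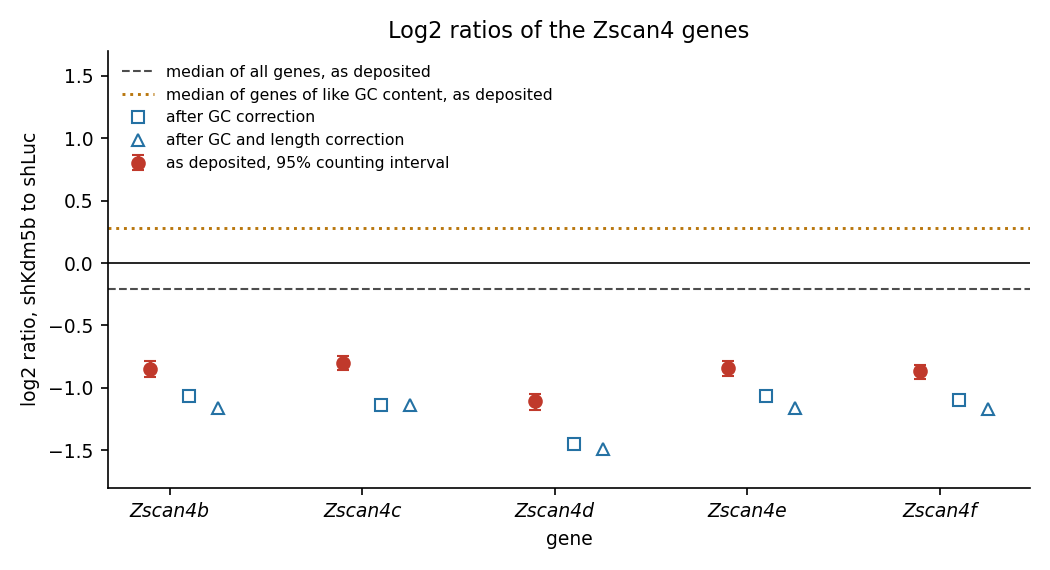
Log2 ratio of shKdm5b to shLuc (y axis) for each *Zscan4* gene, as deposited with its 95% counting interval (red), after the GC correction (squares) and after removing curves on both GC content and length (triangles). All 5 lie below the median of all tested genes (-0.21, dashed) and that of the group of like GC content (0.28, dotted), and *Zscan4d* is lowest in each of the 3 series.

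**Figure D3:**
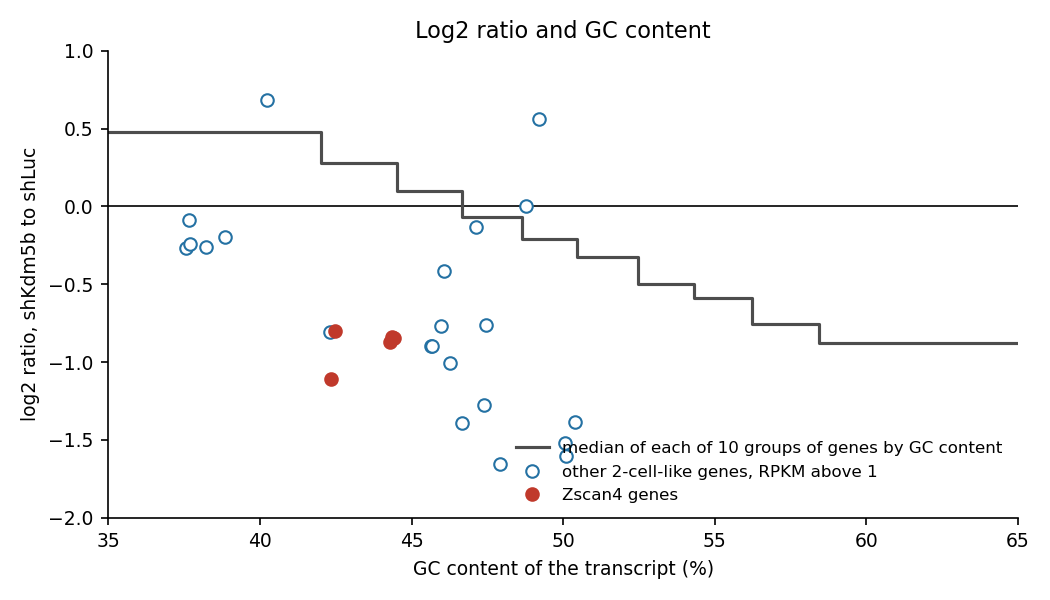
Log2 ratio of shKdm5b to shLuc (y axis) against the GC content of the transcript in percent (x axis, drawn from 35 to 65). The stepped line is the median of each of the 10 groups of tested genes and falls from 0.48 to -0.88, and the 5 *Zscan4* genes (red) lie well under the step of their group, at 0.28.

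The copies were compared with each other within the pair of libraries. Among the 5 genes the highest RPKM was 1.29 times the lowest in shLuc and 1.53 times the lowest in shKdm5b. *Zscan4d* accounted for the wider spread. Its log2 ratio lay below that of *Zscan4c* by 0.31 (95% counting interval 0.23 to 0.40), below that of *Zscan4e* by 0.27, below that of *Zscan4b* by 0.26 and below that of *Zscan4f* by 0.24. In these 4 of the 10 pairs the counting interval of the difference did not hold 0, and in the other 6 it did. The order of the levels did not follow the share of words a copy has of its own, since *Zscan4f*, with the smallest share, had the highest RPKM, while *Zscan4b* (7.51%) and *Zscan4d* (50.4%) had like RPKM in shLuc. By the words of its reference transcript, which is longer than its deposited entry, *Zscan4d* is the copy whose reads can best be told from the rest. What part shared reads had in the likeness of the other 4 ratios was not tested.

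*Tcstv1* and *Tcstv3* were listed at 0 reads in shLuc and at 0 reads in shKdm5b, so no ratio can be given. *Tcstv1* is annotated at chr13:119893388-119894785 on the minus strand with 513 coding bases, and *Tcstv3* at chr13:120316878-120318178 on the plus strand with 507 coding bases, near the distal end of chromosome 13. Their neighbours were looked up in the RefSeq gene order of GRCm38. The last 8 symbols in that order, *Ccl28*, *Hmgcs1*, *Zfp131*, *AF067063*, *Tcstv1*, *AF067061*, *BC147527* and *Tcstv3*, were all listed at 0 in both libraries. *Hmgcs1* encodes an enzyme of cholesterol synthesis that dividing cells use in general. Further from the end, *Paip1*, which encodes a partner of the poly(A) binding protein, had 2638 reads in shLuc and 5875 in shKdm5b, and *Nnt*, a mitochondrial transhydrogenase gene, had 3753 and 3289. Over all genes, 3780 symbols (17.2%) were at 0 in both libraries. With *Hmgcs1* also at 0, the entries of *Tcstv1* and *Tcstv3* can be read only as listed at 0, and no upper limit of their expression is given. Why the entries at this chromosome end hold no reads was not tested.

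The *Zscan4* values were set beside other genes known from the 2-cell-like state. Of 69 symbols listed, 50 were found in the files, 5 of them at 0 in both libraries, and 24 had an RPKM above 1 in the higher library. Of these 24, 12 were called lower, the pseudogene *Zscan4a* of the *Zscan4* cluster among them, 1 was called higher and 11 were not called, against 32.0% lower and 16.3% higher among all tested genes. Their median log2 ratio was -0.59, against -0.21 over all tested genes. Many of these genes also come in near-identical copies, so the counts are not of independent genes. Among the 12 called lower, *Dub1*, *Dub1a*, *Dub2a*, *Tdpoz3* and *BC080695* had an RPKM above 1 in shLuc only. They thus entered through the library where they were higher. With an RPKM above 1 required in both libraries, 7 were called lower and 1 higher, for which no share of all genes is given.

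The *Usp17l* deubiquitinases of this list with an RPKM above 1 were all lower. *Dub1*, *Dub1a* and *Dub2a* passed that threshold in shLuc only, so their direction was partly set by the filter. *Usp17l5* had an RPKM of 3.10 (411 reads) in shLuc and 1.13 (139 reads) in shKdm5b, and *Dub1* (414 and 148 reads) had a log2 ratio of -1.27. *Dub1a* (319 and 91 reads) had a log2 ratio of -1.60 and *Dub2a* (246 and 72 reads) one of -1.52. As deposited, the ratios of all 4 lay below those of the *Zscan4* genes, at far lower levels. After the GC correction they lay between -1.41 and -1.17, above *Zscan4d* at -1.45.

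The PRAME-like genes, relatives of a tumour antigen family that are expressed in early embryos, did not move as 1 group. *BC061212* had 431 reads in shLuc and 146 in shKdm5b (log2 ratio -1.39), *Gm13119* had 562 and 253 (RPKM 3.47 and 1.68), and *BC080695* had 263 and 137 (-0.77). *Gm13040* and *Gm13057* were both listed with 422 reads in shLuc and 204 in shKdm5b, and share nearly all of their 50-base words. *Pramef8* (1969 and 1665 reads) and *Pramef12* (2430 and 2268 reads), which share no such word with another gene, had log2 ratios of -0.14 and 0.01. Outside this family, *Gm4340*, with the highest RPKM of the list, went from 67.6 to 39.9 (log2 ratio -0.76), and *Tdpoz3*, which encodes a protein with a POZ domain, went from 86 to 20 reads (-1.65).

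The relatives of the translation initiation factor gene *Eif1a* in the list differed by less. *Gm2016* had an RPKM of 41.6 in shLuc and 34.7 in shKdm5b (log2 ratio -0.26), and *Gm5662* had 40.2 and 33.5 (-0.27). *BB287469*, *Gm2022*, *Gm8300* and *Gm5039* had log2 ratios between -0.30 and -0.08. None of these 6 was called, while after the GC correction the 5 with a GC value lay between -0.89 and -0.70. After that correction 17 of the 22 listed genes with a GC value were called lower and 1 higher, against 18.0% and 18.6% of all genes, and their median was -0.88. For *Gm2022* the GC value comes from a reference transcript of 435 bases, while its deposited entry has 1821. Transcript and entry lengths also differ for *Dub2a* (1987 and 1638) and *BC061212* (1897 and 1594), so these corrected ratios are less certain.

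Besides *Zscan4a*, described above, the remaining genes of the list above an RPKM of 1 were *Zfp560*, a zinc finger gene and the only one called higher (1.38 in shLuc and 2.28 in shKdm5b), *Gm7102* (2.86 and 4.26), *AU015228* (1.37 and 2.02) and *Arg2* (2.16 and 1.59), which encodes a mitochondrial arginase. *Dux*, the activator of the state, was below an RPKM of 1 in both libraries, with 116 reads in shLuc and 37 in shKdm5b. It has 41.1% words of its own and is a repeated gene, so its reads are uncertain. The early embryonic retrogene *Zfp352* had 86 and 45 reads, and *Gm13043* had 130 and 56. *Lmx1a* had 104 and 47, *Pramef17* 50 and 7, and *Pramef6* 66 and 48. *Ubtfl1* had 107 and 105, and *Sp110* 87 and 76. Of these 8 genes with at least 50 reads in either library but an RPKM of at most 1, all but *Ubtfl1* (log2 ratio 0.07) had a lower RPKM in shKdm5b. *Sp110* was lower by little (log2 ratio -0.08). *Dux*, *Zfp352*, *Lmx1a*, *Pramef17* and *Pramef6* reached 50 reads in shLuc only. The filter thus favours a lower value in shKdm5b, and no result is drawn from this count. Among the tested genes, 7130 of 11804 had a log2 ratio below 0, but these passed another filter (an RPKM above 1), so the comparison is not like for like. *Gm13043* shares 99.4% of its 50-base words with *Gm13040*, so the 2 are not independent.

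**Figure D4:**
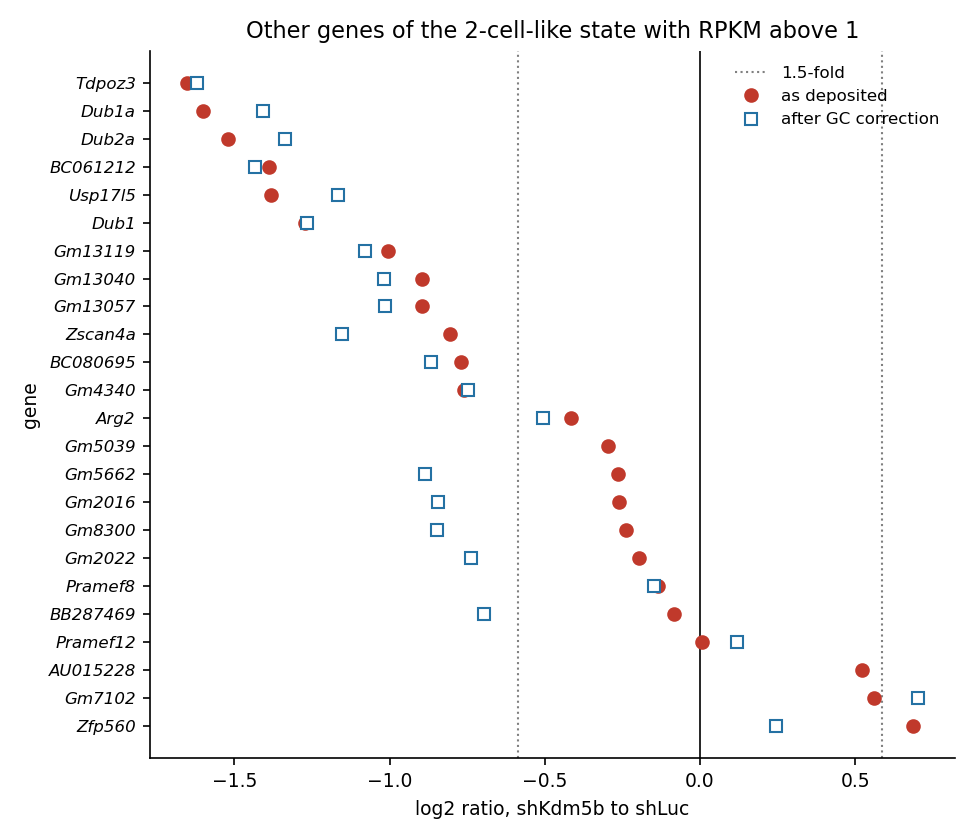
Log2 ratio of shKdm5b to shLuc (x axis) for the 24 other 2-cell-like genes with an RPKM above 1, as deposited (red) and, for the 22 with a GC value, after the GC correction (squares), with dotted lines at 1.5-fold. The *Usp17l* genes stand among the lowest as deposited, and the *Eif1a* relatives move from near 0 to below the 1.5-fold line after the correction.

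Regulators of the state were then examined by role. Of 37 factors listed here as holding the state back, all had an RPKM above 1. Of these, 15 were called lower, *Kdm5b* among them, and 4 higher, against 32.0% and 16.3% of all tested genes. After the GC correction 9 were called lower, *Kdm5b* still among them, and 2 higher, against 18.0% and 18.6%. As *Kdm5b* is the target of the shRNA, its call was fixed by the design, and whether it holds the state back was not tested. *Trim28*, a corepressor of retroelements, had an RPKM of 476 in shLuc and 145 in shKdm5b (log2 ratio -1.72). *L3mbtl2* and *Ring1*, members of a Polycomb complex, had log2 ratios of -1.92 and -1.75. *Chaf1a* (-1.29) and *Chaf1b* (-0.74) encode subunits of the chromatin assembly factor CAF-1. The histone methyltransferase gene *Ehmt2* had a ratio of -1.33, the histone chaperone gene *Daxx* -1.23, and *Mbd3* and *Chd4* of the NuRD complex -1.26 and -1.17. The DNA methyltransferase genes *Dnmt1* (-0.87) and *Dnmt3a* (-0.71), the dioxygenase gene *Tet1* (-1.03), the SUMO ligase gene *Pias4* (-0.98) and the deacetylase gene *Hdac1* (-0.70) were also lower. After the GC correction the calls of *Chaf1b*, *Ehmt2*, *Mbd3*, *Dnmt1*, *Dnmt3a*, *Pias4* and *Hdac1* ended, with log2 ratios between -0.50 and -0.10. *Sumo2*, which encodes a SUMO modifier, was higher (1.31), as were *Hdac2* (0.75), *Rnf2* (0.66), a further Polycomb gene, and *Ncl* (0.62), which encodes nucleolin. After that correction *Sumo2* was still called (1.04), while *Hdac2* (0.52), *Rnf2* (0.21) and *Ncl* (0.30) lay within 1.5-fold. *Kdm1a*, the demethylase also called LSD1, had an RPKM of 107 in shLuc and 95.5 in shKdm5b, and *Rif1*, a telomere-bound repressor of *Zscan4*, had 60.4 and 60.1.

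Among the factors that promote the state, *Dppa2* had an RPKM of 37.4 in shLuc and 46.9 in shKdm5b, *Dppa4*, its partner, had 55.6 and 63.5, and *Tbx3* had 3.49 and 3.20. None of these 3 was called. The retinoic acid receptor gene *Rarg* (log2 ratio -1.25) and the TGF-beta pathway inhibitor gene *Smad7* (-0.99) were called lower, so that 2 of 6 with an RPKM above 1 passed, and both are not called after the GC correction (-0.48 and -0.29). Among further genes listed for a role at telomeres or in recombination, *Terf1*, which encodes the shelterin protein TRF1, went from an RPKM of 49.3 to 97.5 (log2 ratio 0.98). *Tert*, the catalytic subunit of telomerase, went from 3.25 to 1.30 (-1.26), and the telomere helicase gene *Rtel1* from 14.5 to 6.92 (-1.06), and the other 6 with an RPKM above 1 were not called. After the GC correction *Terf1* lay at 0.58, just within 1.5-fold, while *Tert* (-0.81) and *Rtel1* (-0.67) were still called lower. Over all 52 genes of these lists with an RPKM above 1, together termed regulators here and with *Kdm5b* included, 19 were called lower and 5 higher. Among all tested genes the shares were 32.0% and 16.3%. After the GC correction 11 regulators were called lower and 2 higher, against 18.0% and 18.6% of all genes. The median log2 ratio of the regulators was -0.48 as deposited and -0.24 after that correction, against -0.21 and -0.02 for all genes.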

How the data were processed

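RNA-Seq of 1 shLuc and 1 shKdm5b library was analysed. For each RefSeq transcript entry (27405), the authors deposited a whole-number read count, the entry length and an RPKM value, normalized to length and to all aligned reads; the deposited alignments of the reads were used for read length and repeated positions. The submitters' processing notes name mm8, CASAVA 1.0 and Bowtie 0.12.7; the counting program is not given in the sources used here. Reads on kept entries were 67.9% (shLuc) and 66.3% (shKdm5b) of each total.

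Where a symbol had several entries, the one of highest mean RPKM stands for it, and each of the 7 genes has 1 entry. The members, gene lists, motifs and thresholds were chosen with earlier results of these data known. The genes named are the 7, *Kdm5b*, *Zscan4a* and other 2-cell-like genes with an RPKM above 1 or at least 50 reads, regulators called lower or higher, and *Tbx3*, *Dppa2*, *Dppa4*, *Rif1*, *Trim28* and *Kdm1a*. The neighbours of *Tcstv1* and *Tcstv3* were named after their values were seen. The GC correction fitted the log2 ratio on GC content by lowess in statsmodels 0.14.6 with a fraction of 0.3 on genes with an RPKM above 1, took the curve out, and was tested on simulated data. GC content, positions and 50-base words come from GENCODE M21 transcripts matched by accession (*Zscan4e* by symbol and length), and 97.5% of symbols had a GC value. As no replicates exist, no test was a main result. As an alternative, reads were compared by the exact test of edgeR 4.0.16 (R 4.3.3) at assumed dispersions of 0, 0.04 and 0.16 with an FDR below 0.001, which compares the libraries and not the conditions. The remaining steps ran in Python 3.11.15 with SciPy 1.17.1, NumPy 2.4.6 and pandas 2.3.3. ChIP-Seq data were not analysed here.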

Additional observations from a re-analysis of the deposited data

How the results depend on the processing

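No paired analysis was possible because there was 1 library for shLuc and 1 for shKdm5b, which also left no replicate to omit. The count of 5 *Zscan4* genes called lower stayed at 5 with a pseudocount of 1 or 0.01, with the libraries scaled to a median log2 ratio of 0 or to the same 75th percentile, with correction for GC content alone or with length, with other RPKM thresholds, with summed entries, with the whole counting interval required past 1.5-fold, and with the edgeR exact test at a dispersion of 0. It was 4 with TMM factors, where *Zscan4c* lay at -0.58, 1 with a fold above 2 (*Zscan4d*), and 0 at an assumed dispersion of 0.04 or 0.16. The log2 ratio of summed *Zscan4* was -0.72 with the median scaling, -0.82 with the 75th percentile, -0.67 with TMM factors, -1.15 with the GC correction and -1.22 with the GC and length correction, and -0.91 without *Zscan4c*, the entry with the most reads. No ratio changed direction. Of the other 2-cell-like genes, 12 were lower, which became 21 with no RPKM threshold, 7 with RPKM above 1 in both libraries, 7 with a fold above 2, and 0 at a dispersion of 0.04 or 0.16. It was 11 without the repeated entry, an alternative chosen after seeing the data. The 1 higher became 3 with the median, the 75th percentile or the TMM scaling, and 0 with a pseudocount of 1, the GC and length correction, a fold above 2 or a dispersion of 0.04 or 0.16. Of the regulators, 19 were lower, which became 11 with the GC correction, 8 with the GC and length correction, 1 at a dispersion of 0.04 and 0 at 0.16. The 5 higher became 10 with TMM factors, 2 with the GC correction, 1 with the GC and length correction, 1 with a fold above 2, and 0 at a dispersion of 0.04 or 0.16. The dispersions stand in for variation between cultures, which these data do not measure. Summed *Tcstv* reads were 0 in both libraries and gave no value under any alternative.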
